A study of Mus musculus with 21 samples.

Results

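Levels of 9 genes that encode hepatocyte identity transcription factors were followed in mouse liver: Hnf4a, Foxa1, Foxa2, Foxa3, Cebpa, Onecut1, Prox1, Nr1i2 and Nr1i3. They were taken by symbol from a table of raw RNA-seq counts, in which they are 9 of 52636 gene IDs, and all 9 passed the filter on low counts. The livers came from wild-type mice in 3 groups: 8 after 8 weeks on CDA-HFD, 8 after 16 weeks on CDA-HFD, and 5 after 8 weeks on normal chow, a group that the labels denote week 0. CDA-HFD is the usual short name of a choline-deficient, amino acid-defined high-fat diet, used to induce steatohepatitis with fibrosis. The 16-week livers have no chow livers of their own age beside them, so the mice's age and the length of feeding cannot be told apart there. If week 0 is the literal time of the chow livers, the same holds for the 8-week livers. The labels name no strain, sex, age or batch and do not say whether each library came from its own mouse, so p-values measure the spread between these libraries. Each library held 29037525 to 45868842 counts at 8 weeks, 35254088 to 48901145 at 16 weeks and 33522456 to 42586342 on chow.

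Hepatocytes keep their identity through a network of transcription factors that bind each other's genes and the genes of plasma proteins, glucose, bile acid, urea and drug metabolism. HNF4-alpha is a nuclear receptor that binds DNA as a homodimer and activates much of this programme in adult liver. The 3 FOXA proteins open chromatin at liver enhancers, C/EBP-alpha drives metabolic genes of the mature hepatocyte, and HNF6 (gene Onecut1) and PROX1 act in liver development and in the adult hepatocyte. PXR (gene Nr1i2) and CAR (gene Nr1i3) are nuclear receptors that pair with RXR and switch on enzymes and transporters that clear drugs, bile acids and bilirubin.

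Start regions of Hnf4a, Onecut1, Foxa2 and Foxa1 are given as RefSeq windows of 250 bases before to 50 bases after a transcription start (GRCm38.p6). They include every window of the 9 genes that held a match to a motif searched here. Hnf4a has a pair of such windows, since the gene is transcribed from an upstream promoter (P2, known from fetal liver and pancreas) and a downstream promoter (P1, the main one in adult liver). Capitals mark letters that match a core motif of a factor family of the network, which for Foxa1 is its own family.
Hnf4a, downstream window, chr2:163546905-163547204, plus strand: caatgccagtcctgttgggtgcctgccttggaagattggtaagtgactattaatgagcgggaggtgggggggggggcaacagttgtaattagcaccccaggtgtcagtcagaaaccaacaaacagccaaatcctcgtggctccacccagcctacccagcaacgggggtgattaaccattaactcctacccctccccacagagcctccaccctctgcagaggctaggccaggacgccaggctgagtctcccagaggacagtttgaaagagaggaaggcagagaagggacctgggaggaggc
Hnf4a, upstream window, chr2:163506607-163506906, plus strand: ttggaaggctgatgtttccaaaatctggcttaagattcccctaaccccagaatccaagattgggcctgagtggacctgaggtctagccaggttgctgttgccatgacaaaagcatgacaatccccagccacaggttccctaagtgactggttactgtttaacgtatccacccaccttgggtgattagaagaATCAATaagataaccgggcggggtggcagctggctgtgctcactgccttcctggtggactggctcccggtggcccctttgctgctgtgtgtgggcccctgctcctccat
Onecut1, chr9:74861671-74861970, plus strand: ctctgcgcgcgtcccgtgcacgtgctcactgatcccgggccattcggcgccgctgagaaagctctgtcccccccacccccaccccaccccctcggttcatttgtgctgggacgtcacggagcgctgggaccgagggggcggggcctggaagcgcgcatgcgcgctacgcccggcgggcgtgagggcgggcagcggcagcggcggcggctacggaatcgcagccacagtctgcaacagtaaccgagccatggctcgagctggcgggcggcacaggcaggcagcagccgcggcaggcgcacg
Foxa2, chr2:148046920-148047219, minus strand: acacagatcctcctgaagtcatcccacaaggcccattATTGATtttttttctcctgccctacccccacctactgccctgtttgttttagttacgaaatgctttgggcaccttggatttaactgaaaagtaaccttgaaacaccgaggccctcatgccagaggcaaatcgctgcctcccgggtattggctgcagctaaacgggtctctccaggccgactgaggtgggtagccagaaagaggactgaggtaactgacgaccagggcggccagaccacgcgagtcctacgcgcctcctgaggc
Foxa1, chr12:57546062-57546361, minus strand: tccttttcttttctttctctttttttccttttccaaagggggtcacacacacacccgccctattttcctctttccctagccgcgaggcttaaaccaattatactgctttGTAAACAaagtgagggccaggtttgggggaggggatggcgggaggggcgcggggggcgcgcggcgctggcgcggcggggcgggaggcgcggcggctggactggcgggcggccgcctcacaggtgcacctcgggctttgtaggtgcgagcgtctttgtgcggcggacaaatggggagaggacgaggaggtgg
The motifs were searched on both strands as HNF4 CAAAGTCCA, FOXA TGTTTAC, HNF6 ATTGAT and C/EBP TTGCNNAA. The downstream Hnf4a window held none of the 4. The upstream Hnf4a window held 1 HNF6 core, 59 bases before the start, and the Foxa2 window shown held 1 HNF6 core, 213 bases before it. The Foxa1 window held 1 FOXA core, 141 bases before the start. Onecut1's window has a GC content of 73% and held none of them. RefSeq gives 13 windows for the 9 genes, of which 0 held the HNF4 core, 1 the FOXA core, 2 the HNF6 core and 0 the C/EBP core. Among 32851 promoter windows of the same length the shares were 0.475%, 3.65%, 7.54% and 10.8%. Counts per gene do not tell the start sites of 1 gene apart, and a match of letters is not a bound site.

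On the standard scale used here (CPM, counts scaled by library size with TMM factors), 5 of the 9 factors were lower after 8 weeks of CDA-HFD than on chow, 7 were lower after 16 weeks, and 0 were higher at either time. Onecut1 showed the largest difference, Hnf4a and Prox1 were lower by a factor of roughly 2 to 3 at both times, and Foxa2 did not pass the test at either time. A gene was called when its Benjamini-Hochberg adjusted p from edgeR's quasi-likelihood test over 17104 genes was under 0.05. At 8 weeks against chow 51.3% of all genes tested were called, 20.5% lower and 30.8% higher. At 16 weeks against chow 51.9% were called, 22.5% lower and 29.4% higher. The median log2 change of the 9 factors was -0.47 at 8 weeks, beside 0.16 over all genes tested, and -0.92 at 16 weeks, beside 0.03. The same chow livers serve both comparisons. These are levels in whole liver, in which fewer hepatocytes and less RNA per hepatocyte cannot be told apart.

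**Figure D1:**
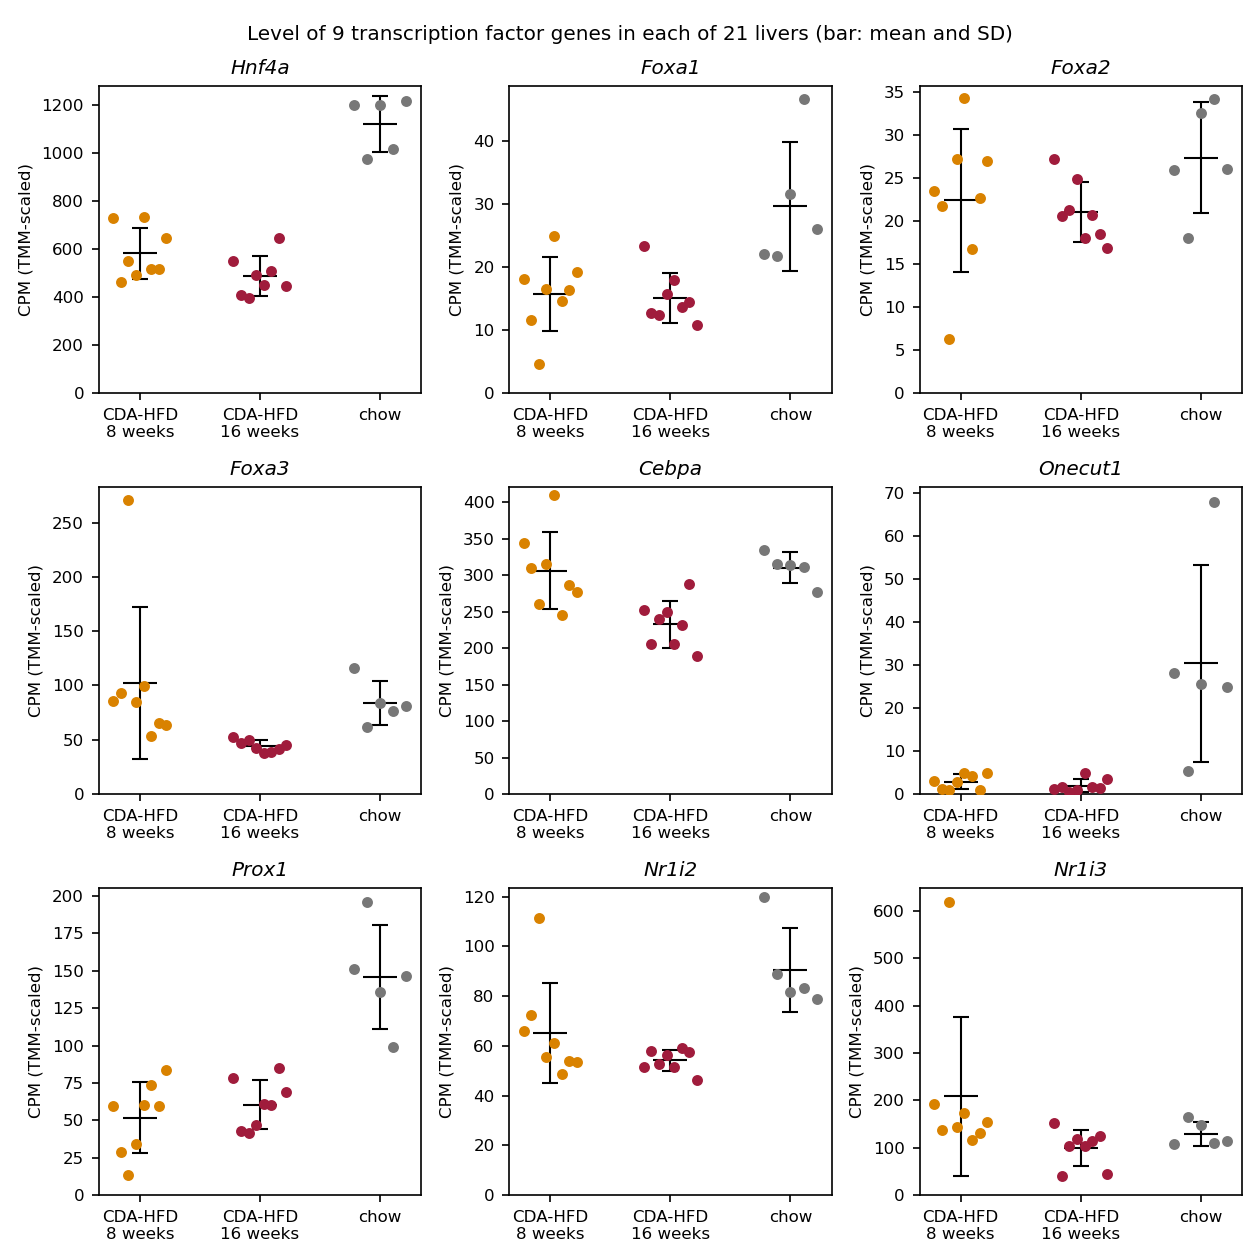
Each panel plots the TMM-scaled CPM of 1 gene in every library on a linear axis from 0, with 8 libraries at 8 weeks of CDA-HFD (orange), 8 at 16 weeks (red) and 5 on chow (grey), and black bars for mean and SD. Hnf4a, Onecut1 and Prox1 have no CDA-HFD library inside the chow range, and 1 library at 8 weeks stands far above the others for Foxa3 (270.8 CPM) and Nr1i3 (619.7 CPM).

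Hnf4a (ENSMUSG00000017950, chr2:163506808-163572910, plus strand) was the most abundant of the 9 and was lower in every CDA-HFD liver than in every chow liver. At 8 weeks its lowest, median and highest libraries had 462.1, 535.1 and 735.5 CPM, and at 16 weeks 395.2, 470.9 and 646.5 CPM. The 5 chow livers had 1202, 973.7, 1199, 1016 and 1216 CPM. The highest CDA-HFD library thus lay below the lowest chow library. Hnf4a fell 1.93-fold at 8 weeks (log2 change -0.95, SE 0.139, edgeR adjusted p = 1.4e-05), to 581.9 ± 108 CPM (SD, n = 8) against 1122 ± 117 CPM on chow (SD, n = 5). At 16 weeks it fell 2.30-fold (log2 change -1.20, SE 0.139, edgeR adjusted p = 3.7e-07), to 487.5 ± 82.9 CPM (SD, n = 8). The call held in 30 of 30 alternative settings at each time.

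The balance of Hnf4a against Cebpa, taken inside each library and so free of library scaling, also differed. There were 1.92 ± 0.3 Hnf4a counts per Cebpa count at 8 weeks and 2.1 ± 0.224 at 16 weeks (SD, n = 8 each), against 3.63 ± 0.511 on chow (SD, n = 5). The ratio ranged over 1.49 to 2.35 at 8 weeks and 1.64 to 2.36 at 16 weeks, and over 3.09 to 4.39 on chow, with no overlap. This ratio was not tested beyond its ranges.

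Onecut1 (ENSMUSG00000043013, chr9:74861921-74891781, plus strand), which encodes HNF6, showed the largest reduction of the 9. Its lowest, median and highest libraries had 0.9035, 2.929 and 4.918 CPM at 8 weeks and 0.418, 1.469 and 4.861 CPM at 16 weeks. Chow livers had 28.12, 5.447, 25.56, 68.12 and 24.83 CPM. The chow group was the most uneven here: its replicate 2 lay just above the highest CDA-HFD library, and its replicate 4 was far above the rest. Onecut1 fell 10.5-fold at 8 weeks (log2 change -3.39, SE 0.556, edgeR adjusted p = 4.79e-05) and 15.8-fold at 16 weeks (log2 change -3.98, SE 0.566, edgeR adjusted p = 5.15e-06). Group means were 2.861 ± 1.69 CPM at 8 weeks and 1.912 ± 1.49 CPM at 16 weeks (SD, n = 8 each), against 30.42 ± 22.9 CPM on chow (SD, n = 5). Without chow replicate 4 the log2 change at 8 weeks was -2.86 and still called. A long non-coding gene annotated on the same strand, Gm20649, shares 52.78% of Onecut1's exon bases and had 0 counts in all 21 libraries.

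Onecut2, a paralogue of Onecut1 that binds the same kind of DNA site, was lower too. It averaged 54.63 ± 19.8 CPM at 8 weeks and 54.5 ± 11.1 CPM at 16 weeks (SD, n = 8 each), against 168.9 ± 31.2 CPM on chow (SD, n = 5). The fall was 3.09-fold at 8 weeks (log2 change -1.63, SE 0.237, edgeR adjusted p = 1.19e-05) and 3.10-fold at 16 weeks (log2 change -1.63, SE 0.236, edgeR adjusted p = 6.56e-06), with no overlap between libraries at either time.

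Prox1 (ENSMUSG00000010175, chr1:190118035-190170714, minus strand), a homeobox factor of hepatocytes that also specifies lymphatic endothelium, fell at both times. Its lowest, median and highest libraries had 13.55, 59.46 and 83.5 CPM at 8 weeks and 41.19, 60.54 and 84.99 CPM at 16 weeks. The chow livers had 151.4, 196.3, 136.1, 99.08 and 146.8 CPM, so the groups did not overlap. It fell 2.83-fold at 8 weeks (log2 change -1.50, SE 0.302, edgeR adjusted p = 0.000411) and 2.41-fold at 16 weeks (log2 change -1.27, SE 0.302, edgeR adjusted p = 0.00132). Prox1's 16-week call was lost with total counts (-0.75, edgeR adjusted p = 0.0859) and with hepatocyte markers (-0.79, edgeR adjusted p = 0.112). Of 6 lymphatic endothelial markers 5 were tested, of which 1 was higher and 1 lower at 8 weeks, and 1 higher and 0 lower at 16 weeks. Their summed level was 65.96 to 162.7 CPM at 8 weeks and 97.91 to 159.1 CPM at 16 weeks, against 107 to 119.1 CPM on chow. The antisense gene Prox1os, which shares 1.585% of Prox1's exon bases, had a log2 change of -0.31 at 8 weeks (edgeR adjusted p = 0.152) and fell at 16 weeks (log2 change -0.94, edgeR adjusted p = 0.000169). That call was lost with total counts (-0.42, edgeR adjusted p = 0.0597) and with hepatocyte markers (-0.46, edgeR adjusted p = 0.0741), and at 8 weeks hepatocyte markers gave a call (-0.62, edgeR adjusted p = 0.0258).

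The 3 Foxa genes differed in their calls, and the differences between them were not tested. Foxa1 (ENSMUSG00000035451, chr12:57540628-57546916, minus strand) had 4.587, 16.41 and 24.88 CPM in its lowest, median and highest library at 8 weeks, and 10.82, 14.04 and 23.26 CPM at 16 weeks. On chow it had 22.13, 21.76, 31.52, 46.61 and 26.06 CPM. Most CDA-HFD libraries lay below the chow range, but the highest of each time reached into it. Foxa1 fell 1.88-fold at 8 weeks (log2 change -0.91, SE 0.271, edgeR adjusted p = 0.00895) and 1.96-fold at 16 weeks (log2 change -0.97, SE 0.271, edgeR adjusted p = 0.00482). Without chow replicate 4 the log2 change at 8 weeks was -0.69 (edgeR adjusted p = 0.0501), and with total counts alone it was -0.72 (edgeR adjusted p = 0.0709), so that the call was lost in both. At 16 weeks Foxa1's call was lost with total counts (-0.44, edgeR adjusted p = 0.251) and with hepatocyte markers (-0.49, edgeR adjusted p = 0.27).

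Foxa2 (ENSMUSG00000037025, chr2:148042877-148046969, minus strand), which also controls bile acid and glucose genes in adult liver, overlapped between all groups. Its lowest, median and highest libraries had 6.255, 23.08 and 34.34 CPM at 8 weeks and 16.93, 20.7 and 27.2 CPM at 16 weeks, against 25.95, 18, 32.63, 34.22 and 26.12 CPM on chow. The log2 change was -0.29 at 8 weeks (SE 0.251, edgeR adjusted p = 0.347) and -0.38 at 16 weeks (SE 0.251, edgeR adjusted p = 0.215). At 16 weeks it passed the threshold in 4 of 30 alternatives, among them the fit without 8-week replicate 3 (log2 change -0.39, edgeR adjusted p = 0.0405).

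Foxa3 (ENSMUSG00000040891, chr7:19013284-19023538, minus strand), the most abundant of the 3 per kilobase of exon, was lower only at the later time by the test. It had 53.23, 85.36 and 270.8 CPM in its lowest, median and highest library at 8 weeks, and 37.71, 43.75 and 52.29 CPM at 16 weeks. Chow livers had 116.4, 61.98, 83.48, 76.12 and 81.34 CPM. All 16-week libraries lay below all chow libraries and below all 8-week libraries. Against chow Foxa3 fell 1.89-fold at 16 weeks (log2 change -0.92, SE 0.282, edgeR adjusted p = 0.0092), and relative to 8 weeks it fell 2.30-fold (log2 change -1.20, SE 0.255, edgeR adjusted p = 0.00285). Foxa3's log2 change between the CDA-HFD times was -0.81 without 8-week replicate 3 (edgeR adjusted p = 0.000304). With hepatocyte markers it was -0.22 and not called (edgeR adjusted p = 0.147). Against chow, Foxa3's 16-week change was not called with total counts (-0.39, edgeR adjusted p = 0.052). At 8 weeks against chow its log2 change was 0.28 (SE 0.289, edgeR adjusted p = 0.419), and -0.12 without 8-week replicate 3.

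**Figure D2:**
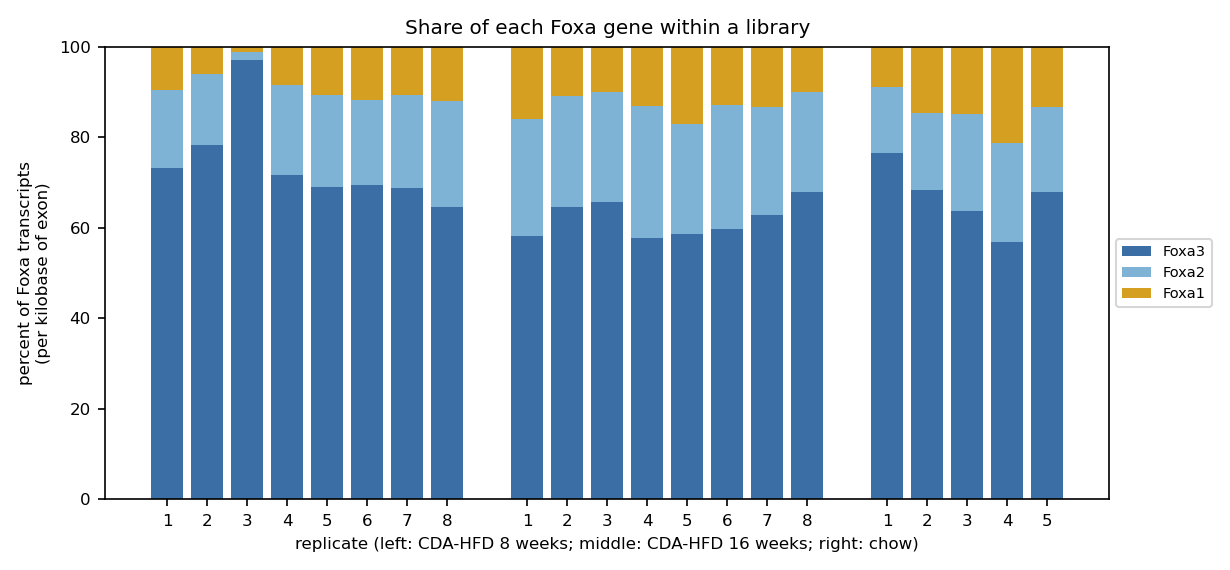
Stacked bars give the percent of Foxa transcripts, per kilobase of exon, that each of the 3 Foxa genes makes up in each library (8 at 8 weeks, 8 at 16 weeks, 5 on chow, from left to right). Foxa3 makes up 56.8% to 78.3% in 20 of the 21 libraries and 97.1% in 8-week replicate 3.

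Within the Foxa family, shares per kilobase of exon do not depend on library scaling. Foxa3 made up 74% ± 10.1 of the 3 at 8 weeks and 62% ± 3.88 at 16 weeks (SD, n = 8 each), against 66.6% ± 7.17 on chow (SD, n = 5). Foxa2's share was 25.2% ± 2.24 at 16 weeks, above every chow library, whose mean was 18.8% ± 3.05 (range 22% to 29.1% against 14.7% to 21.9%). At 8 weeks its share was 17.2% ± 6.62, or 19.4% on average without replicate 3. Foxa1's share averaged 8.71% ± 3.66 at 8 weeks and 12.9% ± 2.6 at 16 weeks, against 14.6% ± 4.44 on chow, with overlapping ranges.

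Cebpa (ENSMUSG00000034957, chr7:35119293-35121928, plus strand), the gene of C/EBP-alpha, was not called at 8 weeks and was lower at 16 weeks. Its lowest, median and highest libraries had 245.7, 297.8 and 409.9 CPM at 8 weeks and 189.4, 236.2 and 288 CPM at 16 weeks. Chow livers were tightly grouped at 334.9, 315, 313.7, 311.7 and 277.1 CPM. The 16-week and chow ranges met only at their edges. At 8 weeks the log2 change was -0.02 (SE 0.124, edgeR adjusted p = 0.899). At 16 weeks Cebpa fell 1.33-fold against chow (log2 change -0.42, SE 0.123, edgeR adjusted p = 0.00729) and 1.31-fold against 8 weeks (log2 change -0.40, SE 0.109, edgeR adjusted p = 0.0155). The change against 8 weeks was not called with no low count filter (-0.37, edgeR adjusted p = 0.0607) or with total counts (-0.006, edgeR adjusted p = 0.976), and it turned to 0.34 with hepatocyte markers (edgeR adjusted p = 0.0938). Against chow, the 16-week change turned to 0.11 with total counts (edgeR adjusted p = 0.587) and 0.07 with hepatocyte markers (edgeR adjusted p = 0.8).

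The calls of the drug-sensing receptors also differed, with no test between them. Nr1i2 (ENSMUSG00000022809, chr16:38248323-38294824, minus strand), which encodes PXR, had 48.63, 58.22 and 111.2 CPM in its lowest, median and highest library at 8 weeks, and 46.39, 54.62 and 59.17 CPM at 16 weeks. The chow livers had 119.7, 89.02, 81.55, 83.21 and 78.63 CPM. All 16-week libraries were below all chow libraries, and at 8 weeks replicate 3 was the 1 library inside the chow range. Per 1000 counts of hepatocyte markers replicate 3 was instead the lowest 8-week library, at 0.224, against 0.477 to 0.639 on chow. On that measure the 16-week range of 0.378 to 0.55 overlapped that of chow. Nr1i2 fell 1.39-fold at 8 weeks (log2 change -0.47, SE 0.161, edgeR adjusted p = 0.0195) and 1.67-fold at 16 weeks (log2 change -0.74, SE 0.16, edgeR adjusted p = 0.000554). Without chow replicate 1, the highest of its group, the 8-week log2 change was -0.35 (edgeR adjusted p = 0.0834). The 16-week call was lost with total counts (-0.21, edgeR adjusted p = 0.112) and with hepatocyte markers (-0.24, edgeR adjusted p = 0.233).

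Nr1i3 (ENSMUSG00000005677, chr1:171213970-171220701, plus strand), which encodes CAR, did not pass the test against chow at either time. Its lowest, median and highest libraries had 115.9, 149.5 and 619.7 CPM at 8 weeks and 40.94, 109 and 151.2 CPM at 16 weeks, against 108.5, 164.2, 148.5, 110 and 115 CPM on chow. At 16 weeks replicates 2 and 8, with 40.94 and 44.67 CPM, lay far below the other 6. The log2 change was 0.69 at 8 weeks (SE 0.38, edgeR adjusted p = 0.132), or 0.20 without replicate 3 (edgeR adjusted p = 0.505), and -0.37 at 16 weeks (SE 0.369, edgeR adjusted p = 0.424). At 16 against 8 weeks Nr1i3 fell 2.09-fold (log2 change -1.06, SE 0.33, edgeR adjusted p = 0.0275). That call was lost without 8-week replicate 3 (log2 change -0.58, edgeR adjusted p = 0.0534), without 16-week replicate 2 (edgeR adjusted p = 0.0517) and without 16-week replicate 8 (edgeR adjusted p = 0.0592). It was also lost when only the groups compared were fitted (edgeR adjusted p = 0.0598), with total counts (log2 change -0.47, edgeR adjusted p = 0.125) and with hepatocyte markers (log2 change -0.05, edgeR adjusted p = 0.857). The opposite-strand gene Tomm40l overlaps 74.85% of Nr1i3's exon bases, and whether the counting used strand is not stated. Tomm40l had 378 to 1438 counts per library and was not called in any of the 3 comparisons.

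**Figure D3:**
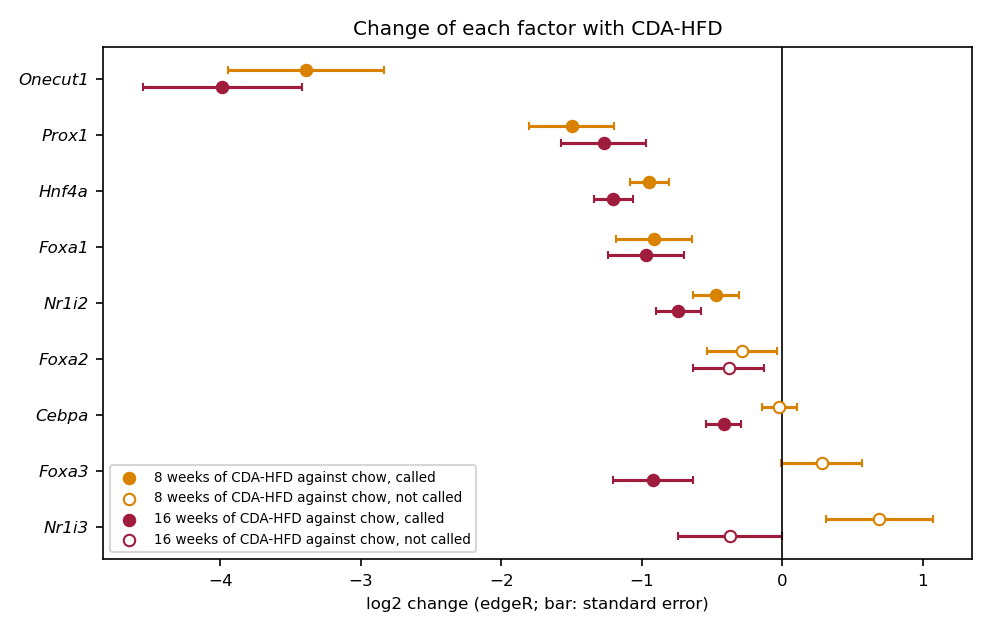
Points give the log2 change of each factor at 8 weeks (orange) and 16 weeks (red) of CDA-HFD against chow, with bars for the standard error and filled points where the change was called. Onecut1 stands furthest left (-3.39 and -3.98), and only Foxa3 and Nr1i3 lie right of 0, both at 8 weeks and neither called.

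Groups of libraries that do not overlap are common in these data. They were seen for 3 of the 9 factors at 8 weeks against chow (Hnf4a, Onecut1 and Prox1), where 30.1% of all genes had such groups. At 16 weeks against chow they were seen for 5 (Hnf4a, Foxa3, Onecut1, Prox1 and Nr1i2), beside 50.5% of all genes, so both counts are near the background. At 16 against 8 weeks only Foxa3 had groups that do not overlap, beside 3.09% of all genes. In that comparison 3 factors were called lower (Foxa3, Cebpa and Nr1i3) and 0 higher, where 21.6% of all genes were called, 11% lower and 10.6% higher. Hnf4a (log2 change -0.26, edgeR adjusted p = 0.14), Onecut1 (-0.59, edgeR adjusted p = 0.407) and Prox1 (0.23, edgeR adjusted p = 0.574) were not called between the CDA-HFD times.

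Compared per kilobase of exon, Hnf4a and Cebpa led in every group. Hnf4a stood at 121 ± 22.4 CPM per kilobase at 8 weeks and 101 ± 17.2 at 16 weeks (SD, n = 8 each), against 232 ± 24.2 on chow (SD, n = 5). Cebpa stood at 116 ± 19.9 at 8 weeks and 88.3 ± 12.1 at 16 weeks, against 118 ± 7.93 CPM per kilobase on chow. The ranges of this pair overlapped on CDA-HFD at both times, whereas on chow every Hnf4a value was above every Cebpa value. Foxa3, Nr1i3 and Nr1i2 followed, at 50.1, 47.3 and 25.6 CPM per kilobase at 8 weeks and 21.8, 22.6 and 21.2 at 16 weeks, against 41.2, 29.3 and 35.4 on chow. Neighbours among these 3 overlapped in each group. Foxa2, Prox1 and Foxa1 had 9.47, 6.15 and 4.73 CPM per kilobase at 8 weeks and 8.87, 7.21 and 4.54 at 16 weeks, against 11.6, 17.4 and 8.90 on chow. Prox1 thus ranked above Foxa2 on chow and below it on CDA-HFD, with overlapping ranges in each group. Onecut1 was last everywhere, at 0.696 CPM per kilobase at 8 weeks and 0.465 at 16 weeks, against 7.40 on chow, and its range overlapped that of Foxa1 only on chow. These levels divide by all exon bases, of which 52.78% of Onecut1's and 74.85% of Nr1i3's overlap another gene. How reads there were counted is not stated, so the ranks of this pair are less certain.

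Genes that these factors are known to activate were described from lists chosen with earlier results of these data known. Of 19 HNF4-alpha targets, 7 were lower and 3 higher at 8 weeks (median log2 change -0.13), and 13 were lower and 1 higher at 16 weeks (median -1.03). Without 8-week replicate 3 the 8-week median was -0.35, with 8 lower and 2 higher. Apob, the structural protein of very-low-density lipoprotein, averaged 2767 ± 674 CPM at 8 weeks and 2343 ± 628 CPM at 16 weeks (SD, n = 8 each), against 7407 ± 989 CPM on chow (SD, n = 5). It fell 2.68-fold at 8 weeks (log2 change -1.42, SE 0.194, edgeR adjusted p = 5.6e-06) and 3.16-fold at 16 weeks (log2 change -1.66, SE 0.194, edgeR adjusted p = 4.08e-07). G6pc, which releases free glucose, averaged 317.4 ± 155 CPM at 8 weeks and 197.2 ± 39.6 CPM at 16 weeks, against 1474 ± 572 CPM on chow, a 4.64-fold fall at 8 weeks (edgeR adjusted p = 5.46e-05) and a 7.47-fold fall at 16 weeks (edgeR adjusted p = 1.44e-06). Apoa4, an apolipoprotein of lipid-loaded liver and intestine, went the other way, to 2897 ± 5030 CPM at 8 weeks and 2544 ± 2120 CPM at 16 weeks, against 108.3 ± 24.6 CPM on chow, with log2 changes of 4.74 (edgeR adjusted p = 0.000204) and 4.55 (edgeR adjusted p = 0.000185). Without 8-week replicate 3 its log2 change at 8 weeks was 3.38 (edgeR adjusted p = 1.39e-05).

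Targets of CAR and PXR had the lowest median changes of the 3 target lists. Of 20 such genes 11 were lower and 1 higher at 8 weeks (median log2 change -1.12), and 16 were lower and 2 higher at 16 weeks (median -1.32). Cyp2b10, the classic CAR target, had 0 to 19 counts per library at 8 weeks and 0 to 39 at 16 weeks, against 603 to 944 counts on chow. In CPM it averaged 0.2046 ± 0.145 at 8 weeks and 0.209 ± 0.23 at 16 weeks (SD, n = 8 each), against 24.56 ± 6.24 on chow (SD, n = 5), with log2 changes of -6.88 (SE 0.599, edgeR adjusted p = 2.36e-08) and -6.84 (SE 0.582, edgeR adjusted p = 6.54e-09). Nr1i3 itself was not called at either time, so the enzyme and the receptor transcript differed in their calls. Cyp2c29, a drug and arachidonic acid oxidase, averaged 82.33 ± 57 CPM at 8 weeks and 32.5 ± 11.6 CPM at 16 weeks, against 2214 ± 124 CPM on chow. Cyp3a11, the classic PXR target, averaged 1768 ± 668 CPM at 8 weeks and 1771 ± 334 CPM at 16 weeks, against 7988 ± 1790 CPM on chow, a 4.52-fold fall at 8 weeks (edgeR adjusted p = 1.03e-06) and a 4.51-fold fall at 16 weeks (edgeR adjusted p = 5.16e-07). Reads of these Cyp2b, Cyp2c and Cyp3a genes could be split among near-identical family members, which the files do not resolve. Gadd45b, a stress-inducible CAR target chosen after its values were seen, rose at both times (log2 change 2.72 at 8 weeks, edgeR adjusted p = 1.97e-07; 2.47 at 16 weeks, edgeR adjusted p = 2.94e-07).

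**Figure D4:**
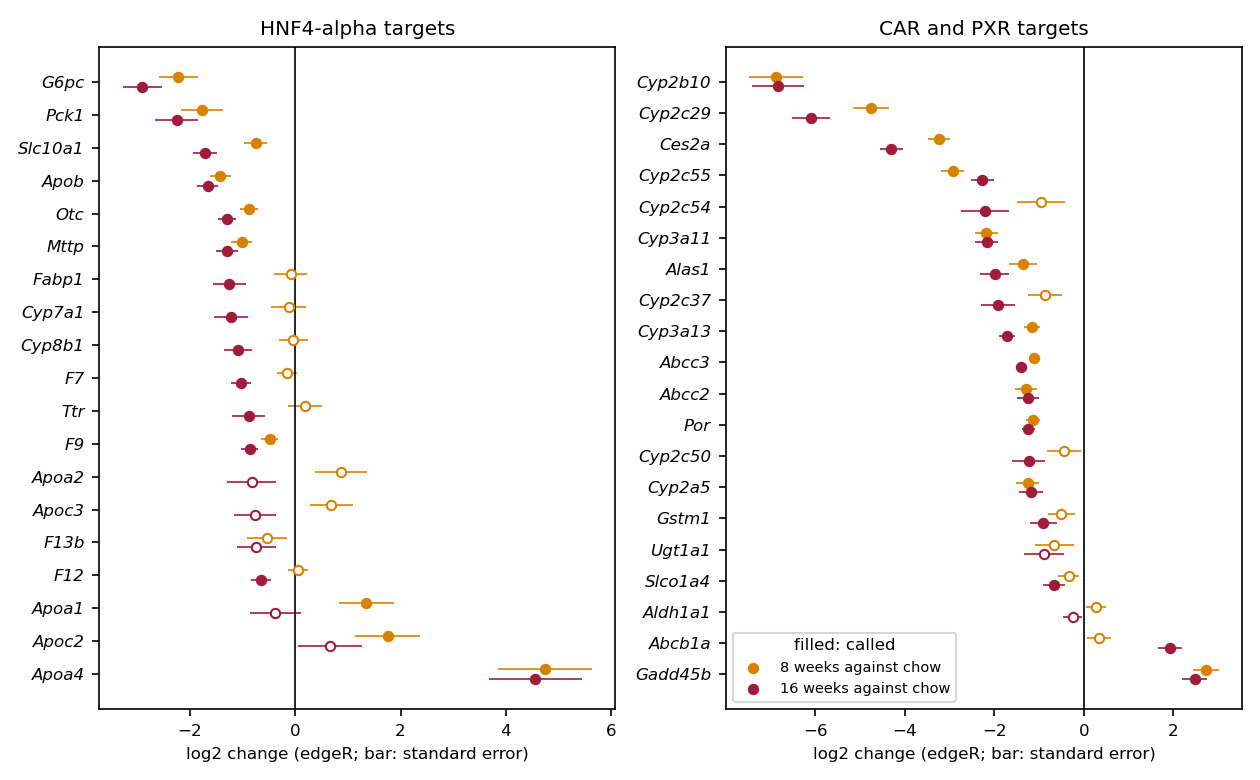
Points give the log2 change at 8 weeks (orange) and 16 weeks (red) of CDA-HFD against chow for 19 HNF4-alpha targets and 20 CAR and PXR targets, with bars for the standard error and filled points where called. Most points lie left of 0, with Cyp2b10 and Cyp2c29 furthest left and Apoa4, Gadd45b and Abcb1a among the called points right of 0.

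Among 14 targets of C/EBP-alpha and the FOXA proteins, 8 were lower and 0 higher at 8 weeks (median log2 change -0.47), and 11 lower and 0 higher at 16 weeks (median -0.90). Cyp7b1, an oxysterol hydroxylase of the alternative bile acid pathway, averaged 132.8 ± 60.1 CPM at 8 weeks and 70.06 ± 41.1 CPM at 16 weeks (SD, n = 8 each), against 596.3 ± 91.2 CPM on chow (SD, n = 5). Cps1, the entry enzyme of the urea cycle, fell 2.78-fold at 8 weeks (edgeR adjusted p = 0.000533) and 3.28-fold at 16 weeks (edgeR adjusted p = 7.85e-05). Alb averaged 122000 ± 41500 CPM at 8 weeks and 69910 ± 9200 CPM at 16 weeks, against 92150 ± 17200 CPM on chow, with a log2 change of 0.41 at 8 weeks (edgeR adjusted p = 0.128) and -0.40 at 16 weeks (edgeR adjusted p = 0.13). The 16-week change was called when only the groups compared were fitted (-0.42, edgeR adjusted p = 0.0169), without 8-week replicates 3, 4 and 5 (-0.40, edgeR adjusted p = 0.0422) and without the 5 libraries highest in squamous markers (-0.52, edgeR adjusted p = 0.0245). With total counts Alb was called higher at 8 weeks (0.46, edgeR adjusted p = 0.0104).

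The partners through which the receptors act were lower in part. Of 14 nuclear receptor coregulators and partners, 7 were lower and 1 higher at 8 weeks (median log2 change -0.57), and 9 were lower and 0 higher at 16 weeks (median -0.64). Rxra, the shared partner of CAR and PXR, averaged 550.7 ± 187 CPM at 8 weeks and 364.2 ± 51.5 CPM at 16 weeks (SD, n = 8 each), against 670.5 ± 51.5 CPM on chow (SD, n = 5). It had a log2 change of -0.28 at 8 weeks (edgeR adjusted p = 0.195) and fell 1.84-fold at 16 weeks (edgeR adjusted p = 0.000346; 0.0595 with hepatocyte markers). Without 8-week replicate 3 its change at 8 weeks was called, at a log2 change of -0.44 (edgeR adjusted p = 0.0115). Nr0b2, whose product SHP represses several nuclear receptors, rose at 8 weeks (log2 change 0.86, edgeR adjusted p = 0.0172; not called when only the groups compared were fitted, 0.79, edgeR adjusted p = 0.057, or with hepatocyte markers, 0.51, edgeR adjusted p = 0.135) and had a log2 change of 0.05 at 16 weeks (edgeR adjusted p = 0.9; called with total counts, 0.58, edgeR adjusted p = 0.046). Ncor1, a corepressor, fell at both times (log2 change -1.24 and -1.02, edgeR adjusted p = 0.00131 and 0.00483), as did the coactivator gene Ncoa2 (log2 change -1.20 and -1.07, edgeR adjusted p = 0.00547 and 0.0102) and Nrip1, a ligand-dependent corepressor (log2 change -1.35 and -0.997, edgeR adjusted p = 0.000171 and 0.00204). With total counts the 16-week changes of Ncor1, Ncoa2 and Nrip1 were -0.49, -0.54 and -0.45 on the log2 scale and not called (edgeR adjusted p = 0.244, 0.259 and 0.248). Ppargc1a, a fasting-induced coactivator of HNF4-alpha, was not called (log2 change -0.62 and -0.52, edgeR adjusted p = 0.0748 and 0.139), but at 16 weeks it was called without 8-week replicate 3 (log2 change -0.52, edgeR adjusted p = 0.0335), and at 8 weeks without 8-week replicate 1 or 8 (log2 change -0.79 and -0.71, edgeR adjusted p = 0.0192 and 0.0475).

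Of 25 other liver-enriched transcription factors, 11 were lower and 4 higher at 8 weeks (median log2 change -0.42), and 15 were lower and 5 higher at 16 weeks (median -0.84). Klf15, a fasting-linked regulator of amino acid breakdown, fell 2.31-fold at 8 weeks (edgeR adjusted p = 0.000291) and 2.88-fold at 16 weeks (edgeR adjusted p = 1.4e-05). Atf5, a stress-responsive factor abundant in liver, rose, to 891.1 ± 300 CPM at 8 weeks and 600.4 ± 46.7 CPM at 16 weeks (SD, n = 8 each), against 272.5 ± 22.1 CPM on chow (SD, n = 5), with log2 changes of 1.71 (edgeR adjusted p = 1.85e-07) and 1.14 (edgeR adjusted p = 1.21e-05).

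Markers of other cells moved with these changes, and their part in them was not tested. All 10 macrophage markers rose at both times, with a summed level of 1139 to 6796 CPM at 8 weeks and 3274 to 6346 CPM at 16 weeks, against 255 to 358.8 CPM on chow. Of 10 stellate cell and myofibroblast markers 10 rose at 8 weeks and 9 at 16 weeks, with sums of 545.1 to 2239 and 1209 to 1980 CPM, against 110.7 to 226.5 CPM on chow. Of 12 bile duct and progenitor markers 8 rose at 8 weeks and 12 at 16 weeks, with sums of 143.2 to 537.4 and 521.7 to 1676 CPM, against 88.81 to 120.5 CPM on chow. Of 8 T and NK cell markers 7 were higher and 1 lower at both times, and of 8 endothelial markers 2 were higher and 1 lower at 8 weeks and 0 higher and 2 lower at 16 weeks. Of 14 hepatocyte markers 4 were higher and 4 lower at 8 weeks, and 0 higher and 9 lower at 16 weeks. Their sum was 128500 to 497300 CPM at 8 weeks and 99260 to 136600 CPM at 16 weeks, against 149700 to 187300 CPM on chow, and none of the 14 was at 0 in the chow livers. Of 8 fetal liver genes 5 were tested, of which 2 rose at 8 weeks and 5 at 16 weeks, among them Afp (log2 change 2.75, edgeR adjusted p = 1.41e-07 at 8 weeks; 2.86, edgeR adjusted p = 4.26e-08 at 16 weeks).

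One library, replicate 3 of the 8-week group, stood apart, and several factors took their extreme value in it. The mitochondrial share of its counts was 0.2495%. This share was 2.22% to 3.18% in the remaining 8-week libraries and 2.37% to 3.15% at 16 weeks, against 4.23% to 5.34% on chow. A low TMM factor raises every CPM of a library, and that of replicate 3 was 0.4955. Factors were 0.8837 to 1.167 in the remaining 8-week libraries and 1.15 to 1.296 at 16 weeks, against 0.811 to 0.879 on chow. On this scale its hepatocyte marker sum of 497300 CPM was the highest of the 21. Replicate 3 was the lowest 8-week library for Foxa1, Foxa2, Onecut1 and Prox1 and the highest for Foxa3, Nr1i2 and Nr1i3. Per 1000 counts of hepatocyte markers it stayed the highest for Foxa3 and Nr1i3 (0.544 and 1.25). By that measure it was the lowest for all the remaining factors, among them Nr1i2 (0.224, others 0.261 to 0.406), Hnf4a (1.11, others 2.51 to 4.01) and Cebpa (0.525, others 1.4 to 1.91). It also held 1518 CPM of 10 squamous epithelium markers and 2698 CPM of 8 skeletal muscle markers. The squamous sum was 2.564 to 274.2 CPM in the other 8-week libraries and 6.351 to 240.7 CPM at 16 weeks, against 0.1838 to 0.6307 CPM on chow, where 6 of the 10 markers were at 0. The muscle sum reached 387.1 CPM at 16 weeks and 375.7 CPM on chow. Exocrine pancreas markers were highest in 8-week replicate 4 (8200 CPM), against 11.78 to 16.57 CPM at 16 weeks and 16.83 to 31.53 CPM on chow. Stomach and intestine markers reached 58.24 CPM at 8 weeks and 21.85 CPM at 16 weeks, against 8.833 CPM on chow, and fat markers 437.1 and 87.94 CPM, against 37.4 CPM on chow. Without replicate 3, Hnf4a, Onecut1, Prox1 and Nr1i2 had no 8-week library inside the chow range, and the same 5 factors were called lower at 8 weeks. The share of all genes without overlap was not computed for that setting, so this count of factors has no background beside it. Over the fits without 1 library, 3045 to 4386 of 17104 genes were called lower at 8 weeks. Without the 5 libraries highest in squamous markers, the log2 change of Hnf4a was -1.34 for 16 weeks against chow, and -0.43 between the later and the earlier CDA-HFD time (edgeR adjusted p = 0.0187).

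How far the lower levels reach depends on what the libraries are scaled to. Scaled to total counts alone, the median log2 change of all genes shifted by 0.12 at 8 weeks and 0.53 at 16 weeks against chow. The 8-week count of factors called lower was 4, without Foxa1, where 1669 of 17104 genes were lower. The 16-week count was 2 (Hnf4a and Onecut1), where 986 genes were lower. Scaled to the summed counts of the 14 hepatocyte markers, the median shifted by -0.26 at 8 weeks and 0.49 at 16 weeks. The 16-week count was then 3 (Hnf4a, Foxa3 and Onecut1), where 866 genes were lower. That marker sum rests largely on Alb, which averaged 92150 CPM on chow, where the sum was 149700 to 187300 CPM. Alb and Cps1, described above with the targets, are themselves among the 14 markers. Of genes called, 60.1% were higher at 8 weeks and 56.6% at 16 weeks with TMM, 78.3% and 89.5% with total counts, and 49.6% and 89.3% with hepatocyte markers. A scaling moves all genes of a library alike, so a change set against the median of all genes says little about the scaling itself and is given as a description. The log2 change of Hnf4a minus that median was -1.11 to -1.10 at 8 weeks and -1.24 to -1.23 at 16 weeks under the 4 scalings, but that of Foxa3 turned sign at 8 weeks (-0.10 to 0.15) and that of Nr1i3 ran between 0.25 and 0.57. The log2 change of Cebpa itself at 16 weeks turned to 0.11 with total counts and 0.07 with hepatocyte markers. Per 1000 counts of hepatocyte markers, Hnf4a had 2.93 ± 0.909 counts at 8 weeks and 4.11 ± 0.62 at 16 weeks (SD, n = 8 each), against 6.78 ± 1.05 on chow (SD, n = 5), and the highest CDA-HFD library, at 5.05, lay below the lowest chow library, at 5.82. Cebpa had 1.55 ± 0.441 at 8 weeks and 1.96 ± 0.227 at 16 weeks, against 1.86 ± 0.0888 on chow. Replicate 3 was the lowest 8-week library for both genes on this measure, at 1.11 for Hnf4a and 0.525 for Cebpa. Without it the 8-week means were 3.19 and 1.69.

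**Figure D5:**
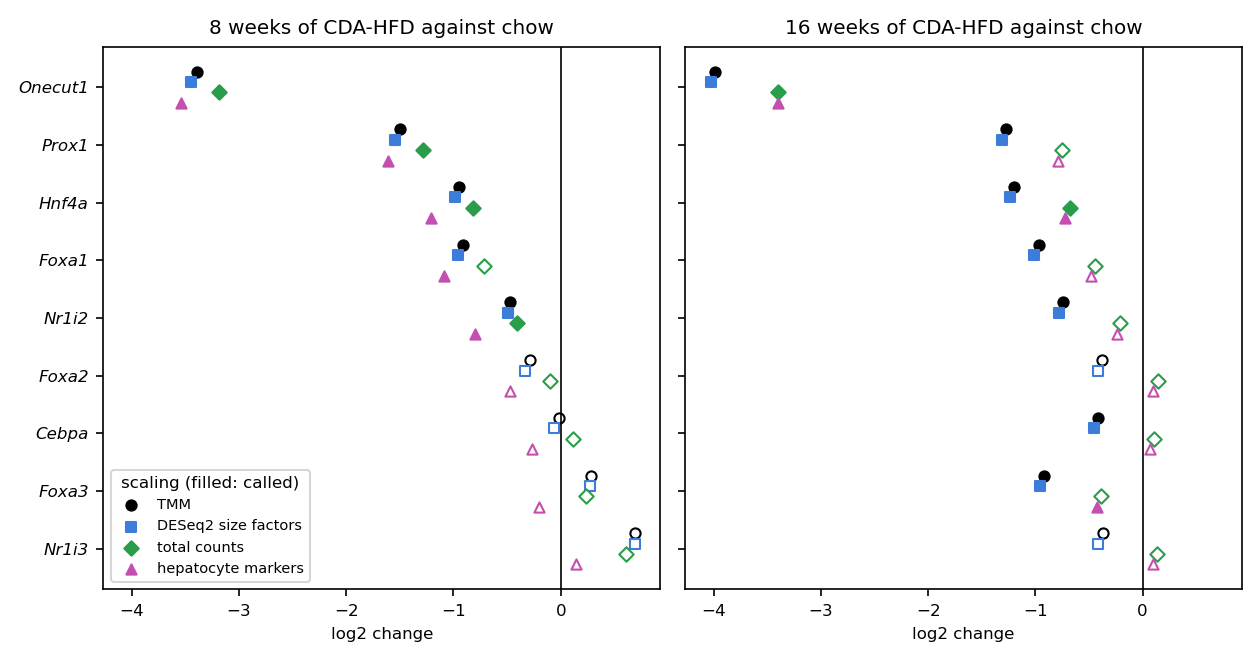
Points give the log2 change of each factor against chow at 8 weeks (left) and 16 weeks (right) under 4 ways of scaling the libraries, filled where called. At 16 weeks total counts and hepatocyte markers move all 9 factors to the right of TMM, leaving Hnf4a, Onecut1 and, with hepatocyte markers, Foxa3 called.

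The same scalings changed the target lists at 16 weeks. Scaled to hepatocyte markers, 866 of 17104 genes tested were called lower and 7221 higher at 16 weeks. In that setting 10 of 19 HNF4-alpha targets were lower and 2 higher, and 12 of 20 CAR and PXR targets were lower and 2 higher. Of 14 C/EBP-alpha and FOXA targets 7 were lower and 0 higher. Among the 25 other liver-enriched factors 5 were lower and 5 higher, and of the 14 coregulators and partners 0 were lower and 1 higher, so the count of lower coregulators at 16 weeks depended on the scaling. At 8 weeks the hepatocyte scaling gave 10 lower HNF4-alpha targets, 13 lower CAR and PXR targets, 8 lower C/EBP-alpha and FOXA targets, 12 lower liver-enriched factors and 6 lower coregulators. Of 17104 genes tested, 2900 were lower and 2855 higher at 8 weeks in that setting.

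Within a CDA-HFD group, the levels of factors and targets were compared across its 8 libraries. Hnf4a and Apob had a Pearson r of 0.64 (exact permutation p = 0.0917, rho 0.57, exact p = 0.151) at 8 weeks and 0.56 (exact permutation p = 0.146, rho 0.69, exact p = 0.0694) at 16 weeks. Without the 2 libraries farthest from the median of Hnf4a, r was 0.85 at 8 weeks and 0.68 at 16 weeks. Nr1i3 and Cyp2b10 had r = 0.22 (exact permutation p = 0.396, rho 0.45, exact p = 0.267) at 8 weeks and -0.76 (exact permutation p = 0.0336, rho -0.40, exact p = 0.327) at 16 weeks. The 16-week value rests on replicates 2 and 8, the lowest in Nr1i3 and the highest in Cyp2b10, without which r was 0.50. Nr1i2 and Cyp3a11 had r = -0.60 (rho 0.14) at 8 weeks and 0.47 (rho 0.19) at 16 weeks, with exact permutation p of 0.134 and 0.24 for r and 0.752 and 0.665 for rho, and r turned to 0.48 and -0.57 without the 2 farthest libraries. Cebpa and Cps1 had r = 0.42 (rho 0.40) at 8 weeks and -0.04 (rho 0.12) at 16 weeks, with exact permutation p of 0.297 and 0.926 for r and 0.327 and 0.793 for rho, and r was 0.56 and -0.03 without the 2 farthest. None of the 8 relations passed a Benjamini-Hochberg adjustment over the 8, the smallest adjusted p being 0.269 for r and 0.523 for rho.

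Genes whose pattern over the 21 libraries was most like that of a factor were found by the root mean square difference of log2 CPM after centring each gene on its own mean, among 17083 tested genes with a symbol. For Hnf4a these were Eif4ebp2 (0.14), which encodes a translation repressor, Aldh8a1 (0.15), an enzyme of tryptophan breakdown, and Hmgn5 (0.17), a nucleosome-binding protein. The nearest was Klhl2 for Foxa1 (0.24), Rbbp4 for Foxa2 (0.23), Aspdh for Foxa3 (0.19), Lgals9 for Cebpa (0.10) and Gm38357 for Onecut1 (0.75). For Prox1 it was Kif1b (0.21), for Nr1i2 Gch1 (0.14) and for Nr1i3 Tpbgl (0.24). None of the factors was the nearest gene of another: the closest pair by rank was Foxa1 and Foxa2 (0.34), where Foxa2 ranked 274 among the genes like Foxa1 and Foxa1 ranked 515 among those like Foxa2. These distances describe the 21 libraries, which share their group differences, and were not tested.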

How the data were processed

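Liver RNA was sequenced as stranded total RNA libraries, per the labels' protocols. For 21 libraries the authors deposited unnormalized read counts per Ensembl gene. The submitters' processing notes name the build GRCm38, whereas aligner, counting program and strand setting are not given there or in other sources used here. In 21 of 21 libraries the per-sample counts equalled the series table. GENCODE M21 gave symbols for 52403 of 52636 IDs (99.56%) and the exon lengths and overlaps. Replicates were numbered in listing order.

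R 4.3.3, edgeR 4.0.16, limma 3.58.1 and DESeq2 1.42.0 were used. The function filterByExpr (minimum count 10) left 17104 genes with 99.961% of the counts. All 21 libraries entered 1 edgeR quasi-likelihood fit with TMM scaling and the group as its only term, and 3 contrasts were tested. A standard error is the log2 change divided by the square root of its F statistic. CPM are TMM-scaled, and levels of different genes were compared per kilobase of merged exon. The fit was also run on simulated counts in which few genes changed, up and down in equal number. That run does not bear on the choice of scaling in these data, where many genes were called.

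The alternatives were DESeq2 size factors, total counts alone, library sizes from the hepatocyte markers, no low count filter, a mean of at least 1 CPM, the DESeq2 Wald test, only the groups compared, leaving out any 1 of the 21 libraries, 8-week replicates 3, 4 and 5 left out, and the 5 libraries highest in squamous markers left out, 30 in all. List counts under other libraries and scalings were added after the values were seen.

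The factors, the 18 other gene lists and the rule for named genes were chosen with earlier results of these data known. The rule names the 9 factors, up to 2 called genes of each list with the largest change at each time, a set of partners and targets whatever their call, the genes most like each factor, and genes overlapping a factor's exons. Genes the rule names are given where a result turns on them. Gadd45b, Abcb1a, Hnf4aos and Igf2, which it does not name, were chosen after their values were seen. One gene of the lists is not reported here and is left out of their counts. Correlations used exact two-sided permutation of pairings within a group, on log2 CPM with a prior count of 2.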

Additional observations from a re-analysis of the deposited data

Results flagged for a closer look

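Of 27 sets of values (9 factors in 3 groups), 4 had a highest library set apart from the rest by Dixon's criterion at the 95% level. Chance alone marks about 1 in 20 such sets. Replicate 3 of the 8-week group accounts for 3 of the 4. Foxa3 had 270.8 CPM there, with the next 8-week library at 99.89 CPM. Nr1i2 had 111.2 CPM there, with the next at 72.54 CPM. Per 1000 counts of hepatocyte markers replicate 3 was instead the lowest 8-week library for Nr1i2, at 0.224. Nr1i3 had 619.7 CPM there, with the next at 193.3 CPM. The remaining set is Nr1i2 on chow, where replicate 1 had 119.7 CPM and the next library 89.02 CPM.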

How the results depend on the processing

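Across 30 alternatives, Hnf4a and Onecut1 were called lower at both times against chow in 30, and Prox1 in 30 at 8 weeks and 28 at 16 weeks. Leaving out 1 library gave 4 to 5 factors lower at 8 weeks, 7 to 8 at 16 weeks and 2 to 3 at 16 against 8 weeks, with 0 to 0 higher in each. At 16 weeks the count of lower factors was 2 with total counts and 3 with hepatocyte markers, where 986 and 866 of 17104 genes were lower. At 16 against 8 weeks, hepatocyte markers gave 3 higher (Hnf4a, Prox1 and Nr1i2) and 0 lower. In that setting 11014 of 17104 genes were called higher and 75 lower. Total counts gave 1 lower, where 245 of all genes were lower. The fit without the 5 libraries highest in squamous markers gave 5 lower, where 2641 of all genes were lower.

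Direction turned as follows, in log2 change. At 8 weeks Foxa3 was -0.21 with hepatocyte markers, -0.12 without replicate 3, -0.23 without replicates 3, 4 and 5 and -0.029 without the 5 squamous-high libraries, and -0.12 to 0.43 over the fits without 1 library. Cebpa was 0.12 with total counts, 0.01 with the 1 CPM filter, 0.061 without the 5 libraries, 0.006 without chow replicate 1 and 0.02 without 8-week replicate 6, and -0.092 to 0.02 over the fits without 1 library. At 16 weeks total counts and hepatocyte markers gave Foxa2 0.15 and 0.10, Cebpa 0.11 and 0.072 and Nr1i3 0.14 and 0.10. At 16 against 8 weeks they gave Hnf4a 0.14 and 0.49, Foxa1 0.28 and 0.61, Foxa2 0.24 and 0.57 and Nr1i2 0.20 and 0.57, and hepatocyte markers gave Cebpa 0.34 and Onecut1 0.14. Without 8-week replicate 5 Foxa1 was 0.064 and Foxa2 0.018 (-0.19 to 0.064 and -0.228 to 0.018 over the fits without 1 library), and without replicates 3, 4 and 5 Prox1 was -0.005.

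Over all genes, hepatocyte markers gave 2855 higher at 8 weeks, 866 lower at 16 weeks, and 11014 higher and 75 lower at 16 against 8 weeks. Total counts gave 1669 lower at 8 weeks, 8448 higher and 986 lower at 16 weeks, and 4449 higher and 245 lower at 16 against 8 weeks. Fitting only the groups compared gave 3356 higher at 8 weeks, 5850 lower at 16 weeks and 782 lower at 16 against 8 weeks. There were 1082 lower at 16 against 8 weeks with no filter, 923 without replicates 3, 4 and 5, and 2941 higher without the 5 libraries. Leaving out 1 library gave 4518 to 5502 higher and 3045 to 4386 lower at 8 weeks, 4688 to 5953 and 3411 to 5355 at 16 weeks, and 1344 to 2527 and 904 to 2835 at 16 against 8 weeks.

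Leaving out 1 library of the 8, r was 0.05 to 0.40 for Nr1i3 with Cyp2b10, -0.78 to 0.69 for Nr1i2 with Cyp3a11, 0.48 to 0.88 for Hnf4a with Apob and 0.23 to 0.54 for Cebpa with Cps1 at 8 weeks, and -0.93 to -0.57, -0.38 to 0.65, 0.45 to 0.74 and -0.28 to 0.20 at 16 weeks. The causes of these shifts were not tested. Low counts limit Cyp2b10 on CDA-HFD. No paired analysis was possible because the replicate numbers follow listing order only.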

Other observations

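Hnf4aos, annotated on the strand opposite Hnf4a and sharing 0 exon bases with it, was looked at after its values were seen. It had a median of 0.5853 CPM at 8 weeks (0.1981 to 1.007) and 0.2634 CPM at 16 weeks (0.1125 to 0.6734). The 5 chow livers had 6.506, 7.77, 5.023, 8.165 and 7.392 CPM. It was 11.9-fold lower at 8 weeks (log2 change -3.58, SE 0.362, edgeR adjusted p = 1.28e-07) and 22.1-fold lower at 16 weeks (log2 change -4.47, SE 0.371, edgeR adjusted p = 4.91e-09), with no overlap between CDA-HFD and chow libraries. Hnf4a itself was 1.93-fold and 2.30-fold lower.

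The pair of 16-week libraries lowest in Nr1i3, replicates 2 and 8 (40.94 and 44.67 CPM), had the highest levels of H19, a fetal liver non-coding RNA, in all 21 libraries: 197.5 and 188.2 CPM, where the other 16-week libraries had 9.555 to 39.49 CPM. They were also the highest 16-week libraries for Cyp2b10, at 0.683 and 0.4341 CPM, from 39 and 27 counts. Igf2, the fetal growth factor gene next to H19, chosen after its values were seen, reached 24.57 CPM in replicate 8. These libraries were picked for their Nr1i3 values, and no test was made between them and the rest.

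Abcb1a, a multidrug transporter gene and PXR target chosen after its values were seen, rose at 16 weeks, to 8.277 ± 2.44 CPM (SD, n = 8) against 2.192 ± 0.555 CPM on chow (SD, n = 5), with a log2 change of 1.92 (edgeR adjusted p = 5.16e-06) and no overlap. At 8 weeks it averaged 2.754 ± 1.04 CPM (log2 change 0.34, edgeR adjusted p = 0.277).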
